A study of Mus musculus with 18 samples.

Results

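Eph receptors and ephrins were followed through sorted crypt cells by their gene symbols: 10 genes, listed by name, of the 43346 in the count table. They are 6 receptor genes (Ephb2, Ephb3, Ephb4, Ephb6, Epha2 and Epha4) and 4 ligand genes (Efnb1, Efnb2, Efnb3 and Efna1). All 10 had a mean count above 0, the only filter for testing, which genes with few reads also pass. RNA was sequenced from Lgr5+ cells of untreated C57BL/6 mice of genotype Lgr5_eGFP_Iris_creERT2, labelled as 8 to 20 weeks old, in which GFP is made from the Lgr5 locus. EPCAM-positive cells were sorted from crypts of the small intestine (SI) and the large intestine (LI) by high, medium or low GFP, which the study takes as centre cells, border cells and cells beyond the border (row >3). Each of the 6 groups has 3 libraries, 18 in all. The position of a cell is therefore read from its GFP and was not seen directly, and all groups carry the Lgr5 reporter allele. The study's methods call the replicates biological, but which mouse gave which library is not given in the sources used here.

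Eph receptors are receptor tyrosine kinases and ephrins are their membrane-bound ligands, so that signalling needs contact between cells and can run into both of them. Ephrin-A ligands are held by a lipid anchor and mainly bind EphA receptors, whereas ephrin-B ligands span the membrane and mainly bind EphB receptors; EphA4 binds both classes. In the intestinal crypt, EphB2 and EphB3 are known as Wnt targets that are high at the base, and ephrin-B1 and ephrin-B2 as ligands that are high towards the top; together they keep cell types in their places along the crypt axis.

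Among the 10 genes, Ephb3 was the receptor that fell most from centre to row >3 and Efnb2 the ligand that rose most in the SI. Ephb2, the receptor of the same pair as Ephb3, moved little. The promoters of these 3 genes are shown because the results turn on them. Each runs from 250 bases before to 50 bases after the start of the gene in RefSeq (GRCm38.p6), 5′ to 3′ on the strand of the gene. Capitals mark a GC box (GGGCGG, or CCGCCC for the other strand) or a CCAAT box (CCAAT, or ATTGG for the other strand).
Ephb3, chr16:21204545-21204844, plus strand: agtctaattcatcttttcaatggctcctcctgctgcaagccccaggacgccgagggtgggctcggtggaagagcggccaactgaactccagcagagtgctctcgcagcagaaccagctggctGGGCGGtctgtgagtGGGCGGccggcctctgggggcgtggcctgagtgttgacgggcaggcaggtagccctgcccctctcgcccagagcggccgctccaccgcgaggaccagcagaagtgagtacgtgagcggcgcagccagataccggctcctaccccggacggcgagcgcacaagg
Efnb2, chr8:8661193-8661492, minus strand: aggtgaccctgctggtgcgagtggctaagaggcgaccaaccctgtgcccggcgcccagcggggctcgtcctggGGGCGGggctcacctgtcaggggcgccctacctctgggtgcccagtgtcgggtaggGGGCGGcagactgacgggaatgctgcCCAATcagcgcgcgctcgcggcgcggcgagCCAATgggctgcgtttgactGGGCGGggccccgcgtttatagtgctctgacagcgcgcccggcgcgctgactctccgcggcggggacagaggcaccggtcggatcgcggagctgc
Ephb2, chr4:136835963-136836262, minus strand: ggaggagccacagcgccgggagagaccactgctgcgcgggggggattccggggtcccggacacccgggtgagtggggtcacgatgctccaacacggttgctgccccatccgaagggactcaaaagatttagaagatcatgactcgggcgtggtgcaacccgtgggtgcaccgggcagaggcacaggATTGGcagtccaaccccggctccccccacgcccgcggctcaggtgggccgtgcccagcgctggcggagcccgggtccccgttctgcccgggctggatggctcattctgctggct
The Ephb3 promoter held 2 GC boxes and no CCAAT box, that of Efnb2 3 GC boxes and 2 CCAAT boxes, and that of Ephb2 1 CCAAT box and no GC box. Over all 32851 promoters of this length, 35.7% held a GC box and 37.4% a CCAAT box. The TCF/LEF core (CTTTGAT or CTTTGAA, both strands), found in 8.65% of all promoters, had no match in these 3 windows and 1 match among the other promoters matched, in Epha2. The RBPJ core (GTGGGAA, both strands), found in 6.38%, had no match in any. A promoter was matched for 9 of the 10 genes, with 10 entries. Matches describe letters in this window only.

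Totals per library ran from 8312093 counts (SI border replicate 1) to 31940965, with a median of 21934851. Lgr5, on which the sort rests, had means of 3959 normalised counts in SI centre and 159 in SI row >3 cells, and of 2359 and 287 in the LI, without overlap. Epcam was present in every library. The SI libraries of replicate 3 stand apart. Genes of the large intestine (Hoxb13, Aqp4, Car1 and Aqp8, of which Hoxb13 had 2 counts in all) summed to 40253 normalised counts in SI row >3 replicate 3, against 414 and 760 in the other SI row >3 libraries and 16572 to 27391 in LI row >3. High sums are mostly Car1, which reached 38981 normalised counts, while Aqp4 and Aqp8 reached at most 2270 and 1171 in any library. In SI border replicate 3 the sum was 23888, against 897 and 1975. In SI centre replicate 3 the sum was 2760, against 2184 and 2276, but Olfm4, a stem cell gene of the small intestine, had 17385 normalised counts there, against 82369 and 78758, and Muc2, the mucin of goblet cells, 142535, against 7468 and 15661. Genes of the small intestine (Gata4, Onecut2, Fabp2, Abcg5 and Cps1) summed to 16384, 8211 and 6525 in the replicate 3 libraries of SI centre, border and row >3, against 18071 to 38730 in the other SI libraries and 2434 to 10256 in the LI. Most counts of these genes were of Cps1 (228547 over all libraries, beside 36559 of Fabp2). What sets these libraries apart was not tested. Lgr5 in SI border replicate 3 was 157 normalised counts, against 1610 and 2028 in replicates 1 and 2. Replicate 2 differs by sex: Ddx3y and Eif2s3y of the Y chromosome had 542 to 1419 counts in its 6 libraries and at most 1 in the others. Results of the 10 genes that use SI libraries are therefore given also without SI replicate 3 where the call changes or the log2 fold change moves by over 1.5 times.

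Ephb3, on chromosome 16 (16:21204755-21223305, mm10, plus strand, ENSMUSG00000005958), was the receptor among the 10 genes that fell most. Its normalised counts were 2275, 2352 and 2000 in SI centre, 1313, 1997 and 643 in SI border and 459, 524 and 387 in SI row >3 cells. In the LI they were 2573, 2010 and 2109 in centre, 1835, 1541 and 1496 in border and 693, 896 and 815 in row >3 cells. In each site the 3 row >3 libraries lay below all border and centre libraries. Row >3 cells had 4.81-fold less Ephb3 than centre cells in the SI (log2 fold change -2.27, SE 0.26, adjusted p = 2.51e-05), and 2.76-fold less in the LI (log2 fold change -1.47, SE 0.25, adjusted p = 0.0468). The call in the SI held when any library was left out, whereas that in the LI was lost with any of its 6 libraries left out. With replicate numbers as blocks inside each site, the LI log2 fold change was -1.46 (adjusted p = 5.67e-04), and over all alternatives its adjusted p ran from 3.96e-06 to 0.500.

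Between border and centre Ephb3 differed less. Border cells had a log2 fold change of Ephb3 of -0.76 in the SI (SE 0.25, adjusted p = 0.315, and with the block -0.86, adjusted p = 0.0254) and -0.46 in the LI (SE 0.25, adjusted p = 1). Without the SI libraries of replicate 3 the SI value was -0.50 (adjusted p = 0.452), and with the block as well it was -0.52 and did not pass (adjusted p = 0.119). With a library left out it ran from -1.21 without SI border replicate 2, which passed (adjusted p = 0.0203), to -0.44 without SI border replicate 3. All border libraries lay below the centre libraries in both sites, by as little as 3.07 normalised counts in the SI. From border to row >3 Ephb3 fell by 1.504 on the log2 scale in the SI (SE 0.26, adjusted p = 0.0102), a call lost without SI border replicate 2 or SI row >3 replicate 1, with adjusted p between 3.45e-06 and 0.188 over the alternatives. In the LI the log2 fold change was -1.01 (SE 0.25, adjusted p = 1), and its adjusted p was 0.0567 with the block and 0.0144 without the SI libraries of replicate 3, which share the estimate of the spread.

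Ephb2 (4:136647539-136835988, mm10, minus strand, ENSMUSG00000028664), also known as a receptor of the crypt base, had smaller log2 fold changes. Its normalised counts were 3895, 3499 and 4253 in SI centre, 3436, 3966 and 3544 in SI border and 2965, 3276 and 3041 in SI row >3 cells. In the LI they were 4838, 4150 and 4189 in centre, 5206, 4097 and 3777 in border and 4656, 4207 and 3996 in row >3 cells. The SI row >3 libraries lay below those of centre and border, and the LI groups overlapped. The log2 fold change from centre to row >3 was -0.32 in the SI (SE 0.14, adjusted p = 0.138) and -0.03 in the LI (SE 0.14, adjusted p = 1). With the block the SI value was -0.32 and passed the threshold (adjusted p = 0.0224), and without the SI libraries of replicate 3 it was -0.24 (adjusted p = 0.398). Border against centre gave -0.10 in the SI (SE 0.14, adjusted p = 0.938; -0.03 without the SI libraries of replicate 3) and -0.01 in the LI (SE 0.14, adjusted p = 1). Row >3 against border gave -0.23 (SE 0.14, adjusted p = 0.538) and -0.01 (SE 0.14, adjusted p = 1).

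**Figure D1:**
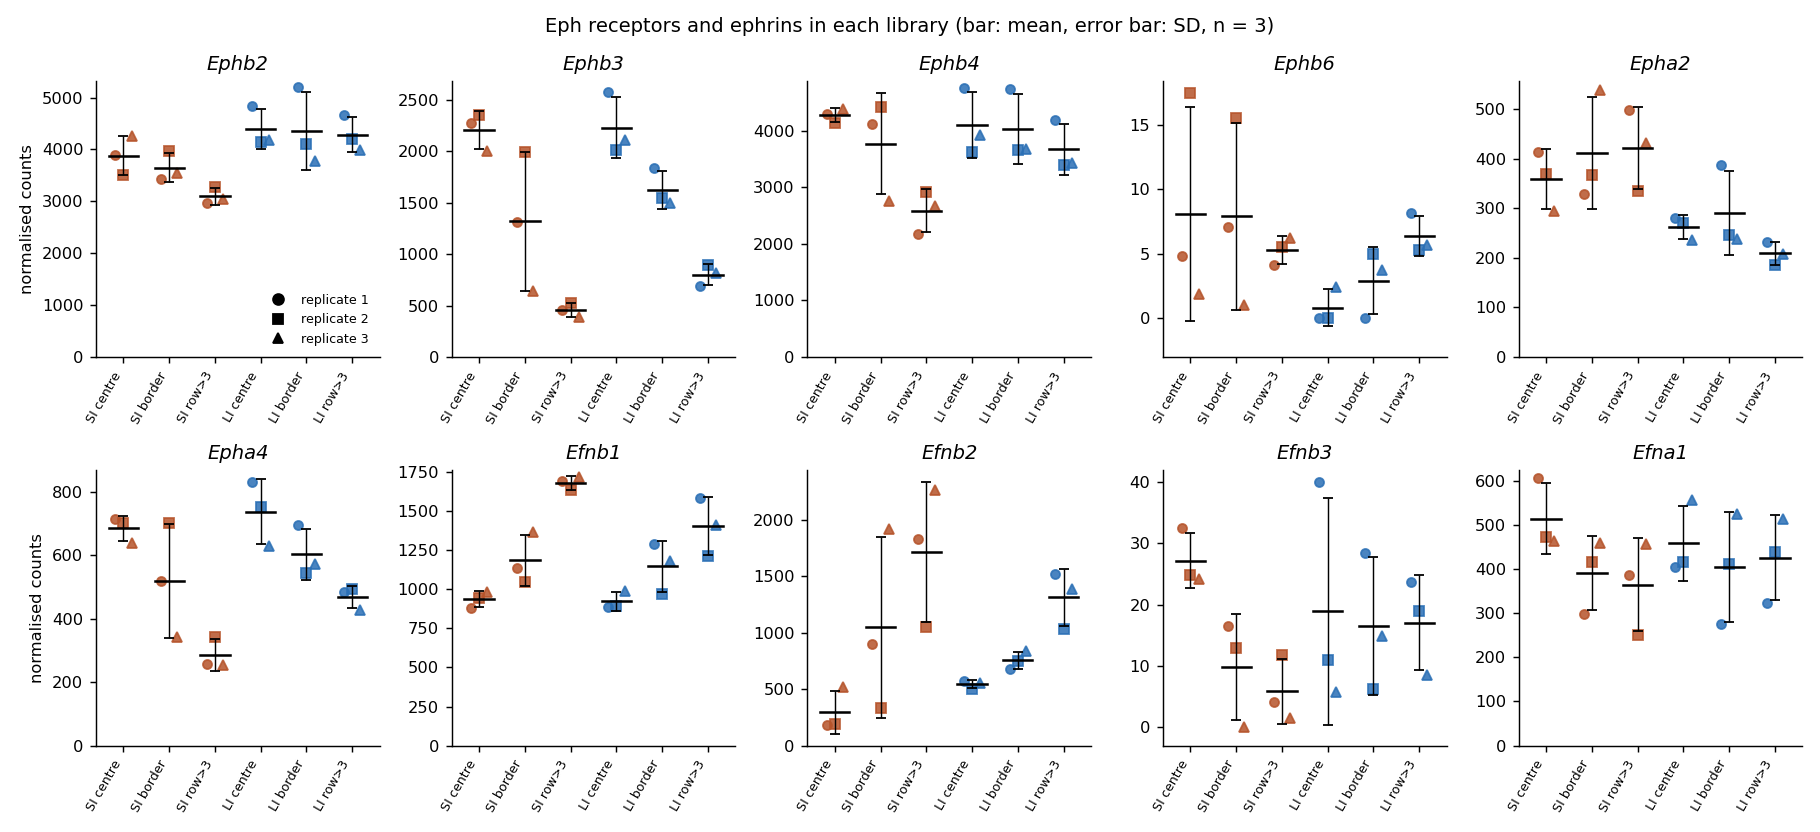
Normalised counts (vertical axis, linear, on a scale of its own in each panel) of the 10 genes in the 6 groups (horizontal axis, SI in brown and LI in blue). Circles, squares and triangles are replicates 1, 2 and 3, the bar is the mean and the error bar the SD of 3 libraries; the means of Ephb3 and Epha4 descend and those of Efnb1 and Efnb2 ascend from centre to row >3, and the SI border triangles lie near the row >3 values for Ephb3, Epha4 and Efnb2.

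Ephb4 (5:137350109-137378669, mm10, plus strand, ENSMUSG00000029710), best known as the ephrin-B2 receptor of veins, was the most abundant of the 10 genes per kilobase of exon in every group. Its normalised counts were 4303, 4137 and 4383 in SI centre, 4127, 4424 and 2757 in SI border and 2167, 2912 and 2669 in SI row >3 cells. It was lower in row >3 than in centre cells of the SI (log2 fold change -0.72, SE 0.17, adjusted p = 0.00525), and the libraries did not overlap. Without SI row >3 replicate 1 the adjusted p was 0.0501, the highest over the alternatives, of which the lowest was 5.32e-05. In the LI the means were 4098, 4028 and 3670 from centre to row >3 with SDs of 446 to 621, and the groups overlapped. From SI border to SI row >3 the log2 fold change was -0.53 (adjusted p = 0.114), which passed the threshold with the block (adjusted p = 0.0120) and without the SI libraries of replicate 3 (-0.72, adjusted p = 0.0113). Ephb4 overlaps the gene Zan on the opposite strand by 33 bases, and Zan reached 237 CPM (counts scaled to the library total), so that some reads there cannot be assigned with certainty. Over all 18 libraries the endothelial markers Cdh5 and Cldn5 had 1 count each, Kdr 17, Emcn 46, Tek 230 and Pecam1 386, beside 2167 to 4749 normalised counts of Ephb4 in each library.

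Ephb6, a receptor without kinase activity, and Efnb3, an ephrin-B ligand best known from the nervous system, lay near the floor. Ephb6 had between 0 and 17.5 normalised counts and Efnb3 between 0 and 40.0 over the 18 libraries. Efnb3 was 32.4, 24.9 and 24.2 in SI centre libraries and 4.10, 11.8 and 1.56 in SI row >3 libraries, without overlap (log2 fold change -2.06, SE 0.78, adjusted p = 0.0907). With the block it passed the threshold (-2.15, adjusted p = 0.0219), but not with the block and without the SI libraries of replicate 3 (-1.88, adjusted p = 0.0518). SI border libraries, at 16.5, 12.96 and 0, also lay below SI centre (log2 fold change -1.73, SE 0.85, adjusted p = 0.563; -1.04 without the SI libraries of replicate 3). Ephb6 was 0, 0 and 2.45 in LI centre and 8.20, 5.31 and 5.66 in LI row >3 libraries, a difference that did not pass (log2 fold change 2.71, SE 1.30, adjusted p = 0.703; 2.06 to 5.79 with a library left out, the highest without LI centre replicate 3). These were 3 and 22 reads, a ratio of 7.27 after scaling by size factors, with a 95% exact interval of 2.18 to 37.9 that covers counting error only. LI row >3 libraries also lay above those of LI border (log2 fold change 1.16, SE 1.04, adjusted p = 1, and 0.56 without LI border replicate 1).

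Epha4 (1:77367185-77515088, mm10, minus strand, ENSMUSG00000026235), the receptor that binds both ligand classes, fell along with Ephb3. The libraries held 715, 700 and 639 normalised counts in SI centre, 519, 700 and 341 in SI border and 258, 342 and 254 in SI row >3 cells. In the LI they were 830, 751 and 627, then 693, 543 and 572, then 484, 494 and 428. Row >3 libraries lay below centre libraries in both sites. The log2 fold change from centre to row >3 was -1.26 in the SI (SE 0.22, adjusted p = 4.92e-04), a call that held with any library left out. In the LI it was -0.64 (SE 0.21, adjusted p = 0.481), and with the block it passed (adjusted p = 0.0324; 0.00474 to 1 over the alternatives). From border to row >3 it was -0.85 in the SI (SE 0.22, adjusted p = 0.0497), a call that held in 2 of 6 fits with a library left out (without SI border replicate 3 or SI row >3 replicate 2) and ranged from 7.42e-04 to 0.328 in adjusted p over the alternatives. In the LI it was -0.35 (SE 0.21, adjusted p = 1), without overlap.

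Epha2 (4:141301240-141329384, mm10, plus strand, ENSMUSG00000006445), an epithelial receptor for ephrin-A1, showed no call within a site. Its means were 358, 411 and 421 normalised counts from centre to row >3 in the SI and 262, 290 and 209 in the LI, with SDs between 23.5 and 112. LI row >3 libraries, at 232, 185 and 208, lay below those of LI centre (281, 270 and 236; log2 fold change -0.33, SE 0.25, adjusted p = 0.925) and of LI border (-0.47, SE 0.25, adjusted p = 1). The value against LI border was -0.22 without LI border replicate 1.

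Efnb2 (8:8617434-8661242, mm10, minus strand, ENSMUSG00000001300), the ligand of EphB receptors that also marks arteries, rose most of the 10 genes in the SI. Its normalised counts were 186, 189 and 518 in SI centre, 900, 334 and 1917 in SI border and 1834, 1049 and 2268 in SI row >3 cells. In the LI they were 574, 505 and 555 in centre, 680, 750 and 837 in border and 1522, 1036 and 1387 in row >3 cells. In each site all row >3 libraries lay above all centre libraries, and in the SI the replicate 3 library was the highest at every level. Row >3 cells of the SI had 5.78-fold more Efnb2 than centre cells (log2 fold change 2.53, SE 0.55, adjusted p = 0.00820), or 2.95 on the log2 scale without the SI libraries of replicate 3 (adjusted p = 1.20e-05). In the LI the log2 fold change was 1.27 (SE 0.53, adjusted p = 0.650), which passed with the block (1.26, adjusted p = 0.00563; 1.39e-04 to 1 over the alternatives).

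From centre to border Efnb2 had a log2 fold change of 1.83 in the SI (SE 0.55, adjusted p = 0.311). It passed with the block (1.73, adjusted p = 0.00272), with DESeq2 (adjusted p = 0.0174) and without the SI libraries of replicate 3 (1.63, adjusted p = 0.0419), over a range of 0.00219 to 1. With a library left out the value ran from 0.99 (SI border replicate 3 omitted) to 2.47 (SI centre replicate 3 omitted), and it passed in 2 of 6 fits (SI centre replicate 3 or SI border replicate 2 omitted). In the LI it was 0.47 (SE 0.53, adjusted p = 1), and the 3 border libraries lay above the 3 centre libraries. From border to row >3 it was 0.70 in the SI (SE 0.52, adjusted p = 0.686, and with the block 0.93, adjusted p = 0.0126) and 0.80 in the LI (SE 0.52, adjusted p = 1). Without the SI libraries of replicate 3 the SI value was 1.32 and passed (adjusted p = 0.0221). With a library left out the lowest value was 0.27 (SI border replicate 2 omitted) and the highest 1.55 (SI border replicate 3 omitted), and it passed in none of these fits.

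Efnb1 (X:99136130-99148991, mm10, plus strand, ENSMUSG00000031217), the other ephrin-B ligand of the crypt, rose with a narrower spread. Normalised counts of the ligand were 880, 943 and 984 in SI centre, 1138, 1047 and 1368 in SI border and 1689, 1631 and 1714 in SI row >3 cells. In the LI they were 883, 891 and 991 in centre, 1289, 967 and 1181 in border and 1583, 1212 and 1411 in row >3 cells. The SI groups did not overlap at any step, and in the LI row >3 lay above centre. From centre to row >3 Efnb1 rose 1.80-fold in the SI (log2 fold change 0.85, SE 0.16, adjusted p = 0.00117), and the call held with any library left out. In the LI the log2 fold change was 0.61 (SE 0.16, adjusted p = 0.315, and with the block 0.60, adjusted p = 0.0112). Border against centre gave 0.34 in the SI (SE 0.16, adjusted p = 0.555, and 0.19 without SI border replicate 3) and 0.31 in the LI (SE 0.16, adjusted p = 1). Row >3 against border gave 0.51 (SE 0.16, adjusted p = 0.114, with the block 0.52, adjusted p = 0.00892, and without the SI libraries of replicate 3 0.64, adjusted p = 0.0296) and 0.30 (SE 0.16, adjusted p = 1).

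Efna1 (3:89271733-89281142, mm10, minus strand, ENSMUSG00000027954), an ephrin-A ligand of EphA2, showed no call in any comparison by edgeR with all libraries. Its means were 514, 391 and 364 normalised counts from centre to row >3 in the SI and 458, 404 and 426 in the LI, with SDs of 80.4 to 125. SI centre libraries (607, 473 and 463) lay above those of SI border (298, 416 and 460; log2 fold change -0.38, SE 0.28, adjusted p = 0.764) and SI row >3 (386, 250 and 457; -0.50, SE 0.27, adjusted p = 0.294). Without the SI libraries of replicate 3 these were -0.60 (adjusted p = 0.779) and -0.76 (adjusted p = 0.0975), and the second passed with the block as well (adjusted p = 0.00798). Border against centre was -0.22 with SI border replicate 1 omitted, and row >3 against centre -0.28 with SI row >3 replicate 2 omitted.

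The counts of called genes among the 10 are read beside those of all 26717 genes tested. From centre to row >3, 2 of the 10 were higher (Efnb1 and Efnb2) and 3 lower (Ephb3, Ephb4 and Epha4) in the SI, where 13.2% of all genes were called. That share includes genes with very few counts. With filterByExpr, which drops such genes, 4126 of 15998 were called, a larger share. In the LI 1 was lower (Ephb3) where 0.0187% of all genes were called, or 5 genes. Without the SI libraries of replicate 3, which share the estimate of the spread, 4 were called there (Ephb3, and Epha4, Efnb1 and Efnb2 at adjusted p = 0.0493, 0.0339 and 0.0195), beside 497 of the 26181 genes tested in that fit. From border to row >3, 2 were lower in the SI (Ephb3 and Epha4; 1.61% of all genes) and 0 were called in the LI (0%; 993 genes at an unadjusted p under 0.05 and 1 of the 10, with 0 genes called by DESeq2). From centre to border 0 of the 10 were called in either site. In the SI 3 genes in all were called (0.0112%), 2399 had an unadjusted p under 0.05, among them 3 of the 10, and DESeq2 called 209, among them 1 of the 10. In the LI no gene was called (0%), 368 had an unadjusted p under 0.05, among them 0 of the 10, and DESeq2 also called 0. Averaged over both sites, 5 of the 10 were called from centre to row >3 (12.8% of all genes): Ephb3 (log2 fold change -1.87, SE 0.18, adjusted p = 5.14e-06), Epha4 (-0.95, SE 0.15, adjusted p = 2.43e-04), Ephb4 (-0.44, SE 0.12, adjusted p = 0.0152), Efnb1 (0.73, SE 0.11, adjusted p = 2.26e-04) and Efnb2 (1.90, SE 0.38, adjusted p = 0.00495). Apart from Ephb4, which was lost without SI row >3 replicate 1, these calls held with each of the 12 libraries left out.

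**Figure D2:**
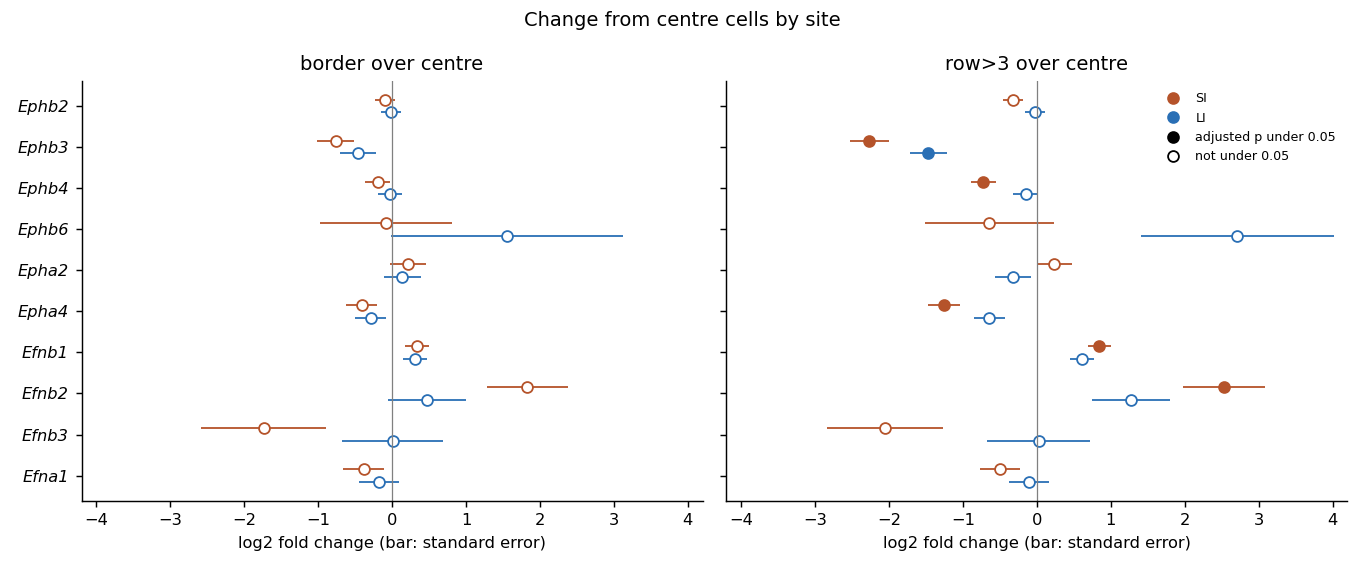
Log2 fold change (horizontal axis) of each of the 10 genes in border (left) and row >3 (right) over centre cells, with the SI in brown, the LI in blue and the standard error as a bar. Filled points have an adjusted p under 0.05 in edgeR: 5 in the SI and 1 in the LI, all of row >3 over centre; Ephb3 lies at -2.27 and -1.47 and Efnb2 at 2.53 and 1.27.

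Summed levels of markers of other cell types differed between the same groups. The goblet cell genes Muc2, Tff3, Agr2, Spink4 and Fcgbp summed to 14333, 26591 and 214260 normalised counts in SI centre and 640937 to 1036950 in SI row >3 libraries, and to 144290 to 235405 and 311724 to 498507 in LI centre and row >3. The 6 Paneth cell genes summed to 34823 to 161603 in SI centre and 4324 to 95014 in SI row >3, and to at most 245 in the LI. The 6 enterocyte genes summed to 1250 to 3978 in SI centre and 12703 to 33375 in SI row >3, and to 488 to 653 and 652 to 1008 in the LI. The 4 tuft cell genes summed to 499, 580 and 6833 in SI centre, 4851 to 15466 in SI border and 1516 to 6600 in SI row >3 libraries, and to 2100 to 5321 in the LI. The 4 enteroendocrine genes summed to 58.8 to 5041 in SI centre, 497 to 6085 in SI border and 765 to 9387 in SI row >3, and to 529 to 4189 in the LI. The immune genes summed to 1377 to 11960 in the SI, with the replicate 3 library lowest at every level, and to 108 to 732 in the LI. That sum is mostly Cd74, with 58348 counts over the 18 libraries. Ptprc had 2893, Cd79a 141, Cd3e 33, Lyz2 22 and Tyrobp 0, so the sum does not measure immune cells as a set. The part of these cells in the results above was not tested. In such bulk samples fewer cells that express a gene and less RNA of it per cell cannot be told apart.

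The order of the genes is given by level, as mean normalised counts per kilobase of exon. In SI centre cells it was Ephb4 (921), Ephb3 (333), Ephb2 (308), Efna1 (281), Efnb1 (271), Epha4 (84.98), Epha2 (76.7), Efnb2 (43.4), Efnb3 (8.54) and Ephb6 (2.14). In SI row >3 cells it was Ephb4 (557), Efnb1 (486), Efnb2 (250.5), Ephb2 (245), Efna1 (199), Epha2 (90.2), Ephb3 (68.8), Epha4 (35.4), Efnb3 (1.83) and Ephb6 (1.403). Ephb3 was thus at rank 2 in centre and rank 7 in row >3 cells, and Efnb2 at ranks 8 and 3. In LI centre cells Ephb4 (883) was followed by Ephb2 (348), Ephb3 (336), Efnb1 (267) and Efna1 (250.2), and in LI row >3 cells by Efnb1 (406), Ephb2 (340.0), Efna1 (233), Efnb2 (192) and Ephb3 (121). Per kilobase of the longest transcript in place of all exons, Ephb3 (470) lay above Ephb2 (403) in LI centre and Efnb2 (274) above Efna1 (261) in LI row >3 cells, and the orders in SI centre and SI row >3 cells were the same. Neighbours in the orders by exons often overlapped between libraries, in 5 of 9 neighbouring pairs in SI centre, 5 of 9 in SI row >3, 3 of 9 in LI centre and 2 of 9 in LI row >3 cells. Ephb4 lay above its neighbour in every library of each group except in SI row >3 cells, where its lowest library (467 normalised counts per kilobase) was below the highest of Efnb1 (497). In SI centre cells the neighbours from Ephb3 to Ephb2, Efna1 and Efnb1 overlapped, while the lowest Ephb3 library (301 normalised counts per kilobase) lay above the highest of Efnb1 (285).

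The level of the 2 ephrin-B ligands against Ephb2 and Ephb3 was put together as the ratio of Efnb1 plus Efnb2 to Ephb2 plus Ephb3, each per kilobase of exon. It was 0.433, 0.476 and 0.565 in SI centre, 0.980, 0.572 and 1.79 in SI border and 2.49, 1.85 and 2.76 in SI row >3 libraries. In the LI it was 0.440, 0.525 and 0.567 in centre, 0.685, 0.699 and 0.885 in border and 1.44, 1.07 and 1.39 in row >3 libraries. For these genes, centre libraries had more receptor and row >3 libraries more ligand in both sites, and by exons the 3 levels did not overlap in either site. Ephb4, also an ephrin-B2 receptor, is not in the ratio. It had 557 normalised counts per kilobase in SI row >3 and 791 in LI row >3 cells. Which side is larger therefore depends on the genes summed. Per kilobase of the longest transcript, SI border (0.499 to 1.78) overlapped both SI centre (up to 0.505) and SI row >3 (from 1.75). The mean was 0.491 ± 0.0671 (SD, n = 3) in centre and 2.37 ± 0.470 in row >3 cells of the SI, and 0.511 ± 0.0644 and 1.30 ± 0.199 in the LI. In SI row >3 cells the ratio without replicate 3 was 2.17. Both sides differed in level. In the SI the ligands summed to 314 and 737 and the receptors to 641 and 314 normalised counts per kilobase in centre and row >3 cells. As a sum over chosen genes the ratio is given without a test.

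**Figure D3:**
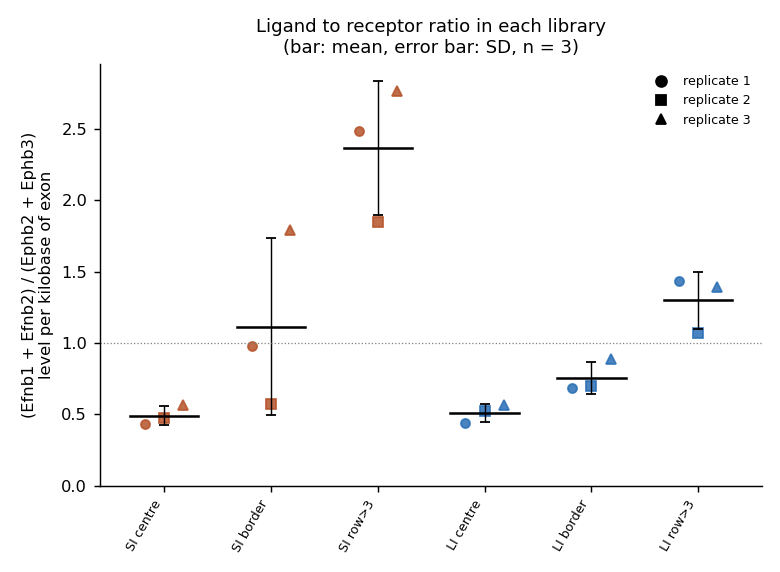
Ratio of Efnb1 plus Efnb2 to Ephb2 plus Ephb3 (vertical axis, from 0, each gene as normalised counts per kilobase of exon) in each library of the 6 groups (horizontal axis). Circles, squares and triangles are replicates 1, 2 and 3, the bar is the mean and the error bar the SD. The dotted line marks equal levels of the genes summed, which leave out Ephb4. All centre libraries lie below it (0.433 to 0.567) and all row >3 libraries above it (1.07 to 2.76).

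Within a site, libraries were also put in the order of their Lgr5 level, which the sort sets. From the library with most to that with least Lgr5, Efnb2 was higher at 7 of 8 steps in the SI (186 to 2268 normalised counts) and at 7 of 8 in the LI (574 to 1522). Efnb1 was also higher at 7 of 8 steps in each site. Ephb3 was lower at 6 of 8 steps in the SI (2275 to 387) and at 7 of 8 in the LI (2573 to 693). Ephb2 was lower at 6 of 8 steps in the SI and at 4 of 8 in the LI. SI border replicate 3, with 157 normalised counts of Lgr5, stood among the row >3 libraries in this order, with 643 of Ephb3 and 1917 of Efnb2. SI centre replicate 3, with 2434 of Lgr5, had 518 of Efnb2, within the range of LI centre (505 to 574). These are descriptions over 9 libraries of a site, which share the sort.

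**Figure D4:**
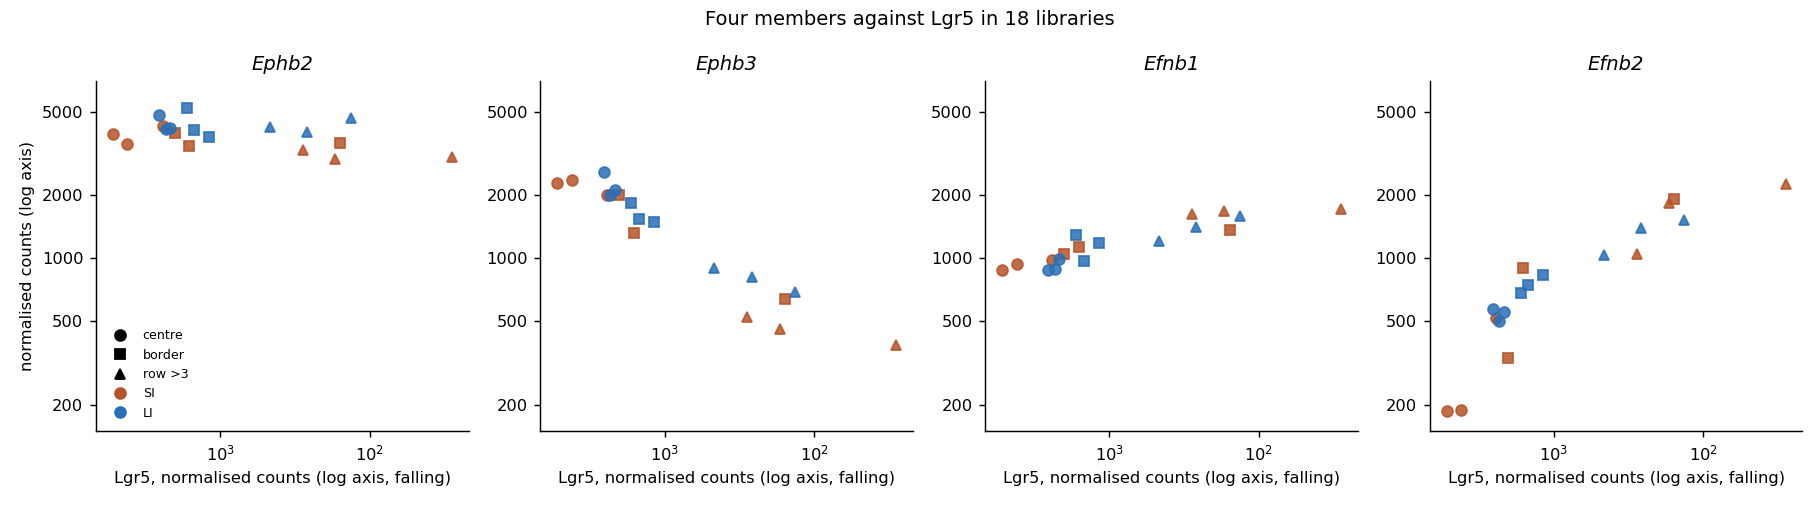
Normalised counts of Ephb2, Ephb3, Efnb1 and Efnb2 (vertical axes, log) against those of Lgr5 (horizontal axes, log, falling to the right) in 18 libraries, with the SI in brown, the LI in blue and symbols for centre, border and row >3. Ephb3 lies lower and Efnb2 higher where Lgr5 is lower, Ephb2 lies between 2965 and 5206, and SI border replicate 3 (brown square near 157 on the Lgr5 axis) lies among the row >3 libraries.

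Between the sites 3 of the 10 genes were called in row >3 cells, where 4.09% of all genes were. Ephb2 was lower in the SI than in the LI (log2 fold change -0.53, SE 0.14, adjusted p = 0.0311), and so was Epha4 (-0.77, SE 0.21, adjusted p = 0.0431). Epha2 was higher, at 499, 335 and 431 against 232, 185 and 208 normalised counts (log2 fold change 0.96, SE 0.25, adjusted p = 0.0266). The SI and LI libraries did not overlap for any of these 3 genes, which is a description, since the share of all genes without overlap is not given. The call of Ephb2 was lost with any of the 6 libraries left out, that of Epha4 in 5 of 6 such fits (all but the one without SI row >3 replicate 2), and that of Epha2 without SI row >3 replicate 1, LI row >3 replicate 2 or LI row >3 replicate 3. Ephb3 (-0.87, SE 0.25, adjusted p = 0.0558) and Ephb4 (-0.56, SE 0.17, adjusted p = 0.0606) also did not overlap between the sites. Without the SI libraries of replicate 3 both passed it (adjusted p = 0.0110 and 0.0262; over the alternatives 0.0110 to 0.247 and 0.0262 to 0.389). Efnb1 (0.20, SE 0.16, adjusted p = 0.641) and Efnb2 (0.33, SE 0.52, adjusted p = 0.855; 0.13 without the SI libraries of replicate 3) did not pass, and the Efnb1 libraries did not overlap.

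In centre and border cells 0 of the 10 genes differed between the sites by edgeR or DESeq2, where edgeR called 1.99% and 1.75% of all genes. At an unadjusted p under 0.05 there was 1 of the 10 at each level, beside 3884 and 3706 of all genes. In centre cells the log2 fold changes of SI over LI were -0.23 for Ephb2 (SE 0.14, adjusted p = 0.484), -0.07 for Ephb3 (SE 0.24, adjusted p = 1; 0.037 without the SI libraries of replicate 3), -0.04 for Efnb1 (SE 0.16, adjusted p = 1) and -0.93 for Efnb2 (SE 0.54, adjusted p = 0.488). Without SI replicate 3, Efnb2 stood at 186 and 189 normalised counts in SI centre against 505 to 574 in LI centre, and the difference passed (-1.56, adjusted p = 0.00420; 0.00420 to 0.795 over the alternatives). Epha2 libraries of the centre did not overlap between the sites (log2 fold change 0.40, SE 0.24, adjusted p = 0.501). In border cells the values were -0.31 for Ephb2 (SE 0.14, adjusted p = 0.299), -0.37 for Ephb3 (SE 0.25, adjusted p = 0.584), -0.01 for Efnb1 (SE 0.16, adjusted p = 1) and 0.43 for Efnb2 (SE 0.52, adjusted p = 0.863). Without the SI libraries of replicate 3 that of Efnb2 was -0.39, that of Efnb1 -0.11 and that of Ephb3 2.54e-04. That of Ephb3 was -0.82 with SI border replicate 2 omitted, and that of Ephb2 -0.19 with LI border replicate 1 omitted.

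Whether the changes differed between the sites was tested as an interaction. For border against centre no gene was called (0%; 708 genes at an unadjusted p under 0.05, of which 0 of the 10, and 2 genes called by DESeq2). For row >3 against centre no gene was called (0%; 1800 genes at an unadjusted p under 0.05, of which 3 of the 10, and 151 genes called by DESeq2, of which 0 of the 10). The change in the SI minus that in the LI was -0.80 for Ephb3 on the log2 scale (SE 0.35, adjusted p = 0.659), -0.57 for Ephb4 (SE 0.23, adjusted p = 0.605) and 1.26 for Efnb2 (SE 0.75, adjusted p = 0.881). With the block in the fit and the SI libraries of replicate 3 left out, Ephb3 (-0.77, adjusted p = 0.0298) and Ephb4 (-0.58, adjusted p = 0.0160) passed, and neither passed under either change alone (adjusted p = 0.119 and 0.0921 with the block, 0.130 and 0.237 without the libraries). With the block within site the difference for Efnb2 was 1.39 and passed (adjusted p = 0.0329), as without the SI libraries of replicate 3 (1.68, adjusted p = 0.0394; 9.09e-04 to 1 over the alternatives).

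The other 12 genes of the family were mostly low, and 11 had a mean count above 0, since Ephb1 had none in any library. From centre to row >3 in the SI, 2 of 11 were lower and 0 higher, where 13.2% of all genes were called. The median log2 fold change was -1.49 against 0 over all genes, and 7 of the 11 had under 50 normalised counts on average in every group. Efna4, an ephrin-A ligand, was 284, 343 and 251 normalised counts in SI centre and 44.5, 92.4 and 59.3 in SI row >3 cells (log2 fold change -2.16, SE 0.36, adjusted p = 4.06e-04), a call held with any library left out. Epha7, a receptor for ephrin-A ligands, was 147, 124 and 60.6 against 32.8, 43.4 and 14.05 (-1.79, SE 0.52, adjusted p = 0.0241), and the call was lost without SI centre replicate 1 or 2 or SI row >3 replicate 1 or 3. Averaged over both sites these 2 genes were lower and 0 were higher (Efna4 -1.46, adjusted p = 4.57e-04; Epha7 -1.86, adjusted p = 0.00542; 12.8% of all genes called). From border to row >3 in the SI Efna4 was lower (-1.70, adjusted p = 0.0226; 1.61% of all genes called), a call lost without SI border replicate 1 or 2 or SI row >3 replicate 1. No gene of this list was called in the other comparisons by edgeR without the block. With the block within site 4 were called from centre to row >3 in the SI and 1 from centre to border, beside 6103 and 620 of all genes, and DESeq2 called 1 between SI and LI border cells. Epha1 ran from 194 to 545 normalised counts in the SI and from 189 to 420 in the LI, and Efna3 from 12.3 to 83.8 and from 41.2 to 94.5.

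Of 28 genes that act with Eph receptors or ephrins inside the cell, all tested, 1 was higher and 4 lower from centre to row >3 in the SI, where 13.2% of all genes were called, with a median log2 fold change of -0.01 against 0 over all genes. Arhgef16, an exchange factor for small GTPases, was higher (1044, 1438 and 1378 against 2386, 3146 and 2051 normalised counts; log2 fold change 0.98, SE 0.20, adjusted p = 0.00195). Ngef, known as ephexin-1, which binds EphA4, was lower (1680, 1745 and 1670 against 661, 915 and 862; -1.06, SE 0.17, adjusted p = 2.32e-04). Grip1, a PDZ adaptor that binds ephrin-B tails, was lower (-1.61, SE 0.30, adjusted p = 0.00107), as was the Src-family kinase Fyn (-1.77, SE 0.35, adjusted p = 0.00151). From border to row >3 in the SI, where 1.61% of all genes were called, 3 were lower and 0 higher (Ngef -0.70, Fyn -1.44 and Grip1 -1.26, adjusted p = 0.0357 to 0.0414), and with a library left out the call held in 4 of 6 fits for Ngef, 2 of 6 for Fyn and 1 of 6 for Grip1, in none without SI border replicate 2 or SI row >3 replicate 1. Averaged over both sites, where 12.8% of all genes were called, Arhgef16 (0.72, adjusted p = 0.00136) was higher, while Ngef (-0.70, adjusted p = 3.90e-04), Grip1 (-1.23, adjusted p = 4.85e-04) and the exchange factor Tiam1 (-1.03, adjusted p = 0.0148, lost without LI row >3 replicate 3) were lower. Without the block no gene of this list was called within the LI or from centre to border in the SI. With the block within site 9 were called from centre to row >3 and 5 from border to row >3 in the SI, 2 from centre to row >3 in the LI and 9 averaged over both sites, beside 6103, 2612, 692 and 5894 of all genes.

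Between the sites Vav2, an exchange factor recruited by activated Eph receptors, was higher in the SI at every level. It had 1179, 1231 and 653 normalised counts in SI centre against 220, 181 and 183 in LI centre cells (log2 fold change 2.34, SE 0.35, adjusted p = 0.00130). In border cells the difference was 2.31 (SE 0.35, adjusted p = 0.00165) and in row >3 cells 1.97 (SE 0.34, adjusted p = 0.00206). These calls held with any library left out, and at each level the lowest SI value was that of replicate 3. Its paralogue Vav3, named after its values were seen, was not called at any level, but its libraries did not overlap. They held 760, 555 and 1173 normalised counts in SI centre against 2191, 2269 and 2270 in LI centre, and 50.6, 69.5 and 802 in SI row >3 against 1013, 1669 and 1746 in LI row >3 cells. Fyn was higher in the SI in centre cells (1.29, SE 0.34, adjusted p = 0.0489) and lower in row >3 cells (-1.35, SE 0.35, adjusted p = 0.0270); the first call held in 1 of 6 fits with a library left out and the other in 2 of 6. Its normalised counts were 402, 429 and 211 in SI centre libraries and 80.0, 133 and 90.5 in SI row >3, but 101, 117 and 187 in LI centre and 300, 189 and 262 in LI row >3 libraries. The difference of these changes between the sites was -2.64 on the log2 scale (adjusted p = 0.110 in edgeR; 0.00280 with the block and 6.55e-04 in DESeq2).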

How the data were processed

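RNA was measured in 18 libraries of sorted Lgr5+ cells in 6 groups of 3, with groups taken from the labels. Per the study's methods and the submitters' processing notes, the authors demultiplexed reads of a stranded SMART-Seq library with bcl2fastq, trimmed them, aligned them to mm10 and counted genes with STAR; the deposited table holds raw counts. A further deposited table holds each library's counts divided by 1 size factor (unit: signal, called normalised counts in the text), constant within a library to a relative deviation of 5.33e-15, for 24814 genes. Which annotation release was used, and whether strand was counted, is not given in the sources used here. GENCODE M21 (GRCm38) holds 42462 of the 43346 identifiers and gave positions and exon lengths, so levels per kilobase rest on that release.

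Raw counts were tested with edgeR 4.0.16 in R 4.3.3: TMM factors, genes with a mean count above 0 (26717), glmQLFit with robust = TRUE and legacy = FALSE, 6 groups in 1 fit, 12 residual degrees of freedom and Benjamini-Hochberg adjustment over all genes. Genes were called at an adjusted p under 0.05. The study used DESeq2, and its version 1.42.0 was run here as an alternative. Other alternatives were RLE factors, library size only, filterByExpr, no filter, the compared groups only, the replicate number as a block, fits without SI replicate 3, and each library left out; the legacy fit and the block together with leaving out SI replicate 3 were added after seeing the data. Deviations from group means (log2 of CPM + 1, 8690 genes with at least 10 CPM) correlated between libraries of equal replicate number at 0.342 to 0.794 within the SI and 0.481 to 0.759 within the LI, 9 pairs each. All were over 0.1, so equal numbers were accepted as pairs within a site. They entered as a block in alternative fits only, and the main fit had no block. Between libraries of unequal number the correlations were -0.760 to 0.548 within the SI and -0.578 to 0.00113 within the LI. SI centre replicate 1 correlated at 0.491 with SI border replicate 2 and at 0.342 with SI border replicate 1. Replicates 1 and 2 of the SI were therefore not always separated by this check. Between SI and LI equal numbers were all over 0.1 for border cells (0.266, 0.249 and 0.222), not for centre (0.0623, 0.352 and 0.128) or row >3 (-0.0247, 0.296 and 0.138).

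All 10 genes are described in every group. Log2 fold changes are given for Ephb2, Ephb3, Efnb1 and Efnb2 in each comparison within or between sites, and for other members where they were called or the libraries did not overlap. A lack of overlap between 3 and 3 libraries is a description and not a test. How common it is among all genes is not given. Other family genes and up to 3 signalling genes per direction are named by their call or level. The members and lists were chosen with earlier results of these data known. Sequences are from RefSeq, GRCm38.p6. A marker gene chosen for the large intestine is not reported here.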

Additional observations from a re-analysis of the deposited data

How the results depend on the processing

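The number of the 10 genes called moved by over 1.5 times, or from or to 0, under some setting in 7 of 12 comparisons and by less in 2, which ran from 4 to 7 for SI row >3 against centre and from 4 to 6 averaged over both sites (5 in each as reported). With the replicate block within site, which replicate numbers within a site allow as pairs, the counts were 2 for SI border against centre (0 without the block), 5 for SI row >3 against border (2 without it), 4 for LI row >3 against centre (1 without it) and 1 for the interaction of row >3 (0 without it). A block over all libraries gave 5 for SI against LI row >3 cells (3 without it; 1840 and 1092 of all genes), where the numbers were not found to be pairs. Neither block moved another count by over 1.5 times (7 with the block within site and 5 without it for SI row >3 against centre). Calls over all genes rose with the block within site from 3 to 620, 429 to 2612, 5 to 692 and 0 to 620 in the first 4 of these comparisons. Without all SI libraries of replicate 3 the counts were 1 for SI border against centre, 5 for SI row >3 against border, 4 for LI row >3 against centre, 1 for LI row >3 against border, 1 for SI against LI centre, 5 for SI against LI row >3 and 1 for the interaction of row >3, beside 252, 1892, 497, 21, 2854, 3184 and 857 of all genes. With the block as well, chosen after seeing the data, they were 1, 5, 4 and 2 for the first 4 of these comparisons and 3 for the interaction, beside 599, 3284, 1776, 401 and 1997 of all genes. DESeq2 gave 1 for SI border against centre and 2 for LI row >3 against centre (209 and 82 of all genes). RLE factors, library size only and no filter each gave 1 for SI row >3 against border, 0 for LI row >3 against centre and 1 for SI against LI row >3, and filterByExpr gave 0 for LI row >3 against centre, where these 4 settings called 0 or 1 of all genes (216 to 410 and 835 to 1127 in the other comparisons under the first 3). A fit of the 2 groups alone gave 0 for SI row >3 against border and 2 for LI row >3 against centre (0 and 243 of all genes). With each library left out the counts were 0 to 2 for SI border against centre, 0 to 4 for SI row >3 against border, 0 for LI row >3 against centre and 0 to 2 for SI against LI row >3, beside 0 to 319, 3 to 1522, 0 to 3 and 379 to 1686 of all genes. The cause was not tested.

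Of the log2 fold changes printed in the report, those that changed sign were uncalled. They were near 0 apart from Efnb2 and Ephb3 in SI over LI border cells, and Ephb6 in the SI, given below. In SI over LI border cells Efnb2 (0.43) was -0.39 without SI replicate 3 and -0.41 to 0.86 with a library left out. Ephb3 (-0.37) was 2.54e-04 without SI replicate 3 and -0.82 to -0.047 with a library left out. Over LI centre, Ephb3 was 0.037 without SI replicate 3 (-0.11 to 0.025 with a library left out). Efnb1 was 0.021 with DESeq2 and RLE factors and 8.8e-04 in the 2 groups alone (-0.084 to 0.030). In border cells Efnb1 was 0.048 with DESeq2 and RLE factors and 0.0053 with filterByExpr (-0.16 to 0.076). Within the LI, Ephb2 ran from -0.14 to 0.062 for border over centre, -0.081 to 0.024 for row >3 over centre and -0.092 to 0.11 for row >3 over border. Under the settings that left out no single library, 494 of the fold changes kept direction and side of the threshold, 36 came to pass it, 18 ceased to pass it and 9 changed sign. With a library left out 330 kept both, 4 came to pass the threshold, 28 ceased to pass it and 16 changed sign. Both sets of counts cover the listed receptors and ephrins only, under the rule stated above for giving log2 fold changes. Called values averaged over both sites are included, and the interaction values are left out. Also left out is Ephb4 from SI border to SI row >3 (-0.53), which came to pass the threshold in 1 of 6 fits with a library left out.
At most 17.5 and 40.0 normalised counts were found for Ephb6 and Efnb3, so that their differences rest on few reads. With a library left out, the uncalled log2 fold changes of Ephb6 in the SI ran from -1.39 to 1.09 for border over centre, from -1.09 to 0.53 for row >3 over centre and from -1.25 to 0.75 for row >3 over border.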
